A study of Mus musculus with 5 samples.

Results

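The Hox genes of the HoxA, HoxB, HoxC and HoxD clusters were followed in mouse hematopoietic stem cells (HSCs), the bone marrow cells that renew the blood, after culture with all-trans retinoic acid (ATRA). Members were all genes whose symbol in the array's gene table is Hoxa, Hoxb, Hoxc or Hoxd and a number. Of 39 such genes, 36 had an array feature naming that gene alone, and they are 36 of the 22180 genes measured in this way. HoxA held 9 of them, HoxB 10, HoxC 9 and HoxD 8. The others are not analysed here as single genes. Where a gene had several such features, the brightest on average was used, which concerned Hoxb5 alone.

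The study asked how retinoic acid acts on the deep quiescence of HSCs, called dormancy. Stem and progenitor cells of C57BL/6 mice, with no engineered allele named, were kept for 24 h with 5 µM ATRA in 2 samples, or with the solvent DMSO as control in 3. HSCs were sorted by flow cytometry only after the culture, and RNA was labelled and hybridised to Affymetrix gene-level arrays. The labels give neither the surface markers of the sort nor the age or number of animals, and do not say that replicates came from separate cultures. The p-values therefore measure only how far these samples spread, and that spread may be technical. Values are deposited log2 expression values, and every difference is ATRA minus DMSO on that log2 scale. The 5 arrays limit the precision of every value.

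Hox proteins are homeodomain transcription factors that give cells along the body axis their position. Genes lie within each cluster in the order of their paralog group, from group 1, expressed toward the head, to group 13, expressed toward the tail. In the embryo, retinoic acid bound to its nuclear receptors switches on the genes of the low-numbered groups first, through response elements in and beside the clusters. In blood, HoxA genes such as Hoxa9 and HoxB genes such as Hoxb4 are known for their activity in stem and progenitor cells, where their products bind DNA with cofactors of the PBX and MEIS families, and their chromatin is kept open by the MLL methyltransferase complex.

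With ATRA, 1 Hox gene was lower and none was higher at the test's threshold. The fit was limma over all 22180 genes, with Benjamini-Hochberg adjustment and a threshold of 0.05. Hoxa6 was the gene that fell, and the other 35 did not pass, with adjusted p from 0.0733 for Hoxb8 to 0.987 for Hoxa2. Among all genes, 6.48% were called higher and 15.5% lower. At an unadjusted p under 0.05 there were 2 Hox genes, Hoxa6 and Hoxb8. Differences of the 36 genes ran from -1.06 to 1.13 around a median of 0.30, beside a median of 0.16 over all genes. RNA of a sorted population was measured, so fewer cells of a kind and less RNA per cell cannot be told apart.

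The arrays themselves differed in spread. Over all features the SD was at least 1.96 with DMSO, and 1.77 and 1.49 in ATRA replicates 1 and 2. Pearson's r across features, a description since features are not replicates, was 0.966 or more among the DMSO arrays and 0.730 for the ATRA pair. ATRA replicate 1 was closer to the DMSO arrays, at 0.811 to 0.834, than to replicate 2, which was at 0.602 to 0.641 with them. Bright genes of the DMSO arrays read lower with ATRA and dim genes higher, so differences of the Hox genes named with a test are also given with that trend on expression level removed. HSC markers with a feature of their own (8 of 10) averaged 8.76 to 8.99 per DMSO array against 7.85 and 6.89 in ATRA replicates 1 and 2. Of the 8, 4 passed as lower, beside 15.5% of all genes, and all genes averaging 8 to 9 in DMSO had a median difference of -1.33. With that trend removed 3 of the 8 were called lower, where 1567 of all 22180 genes were. The differences of 3 others were then above 0, Procr (0.46), Cd34 (0.39) and Ptprc (0.31). Kit, the receptor for stem cell factor, averaged 10.94 in DMSO and was at 8.32 and 7.06 in ATRA.

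**Figure D1:**
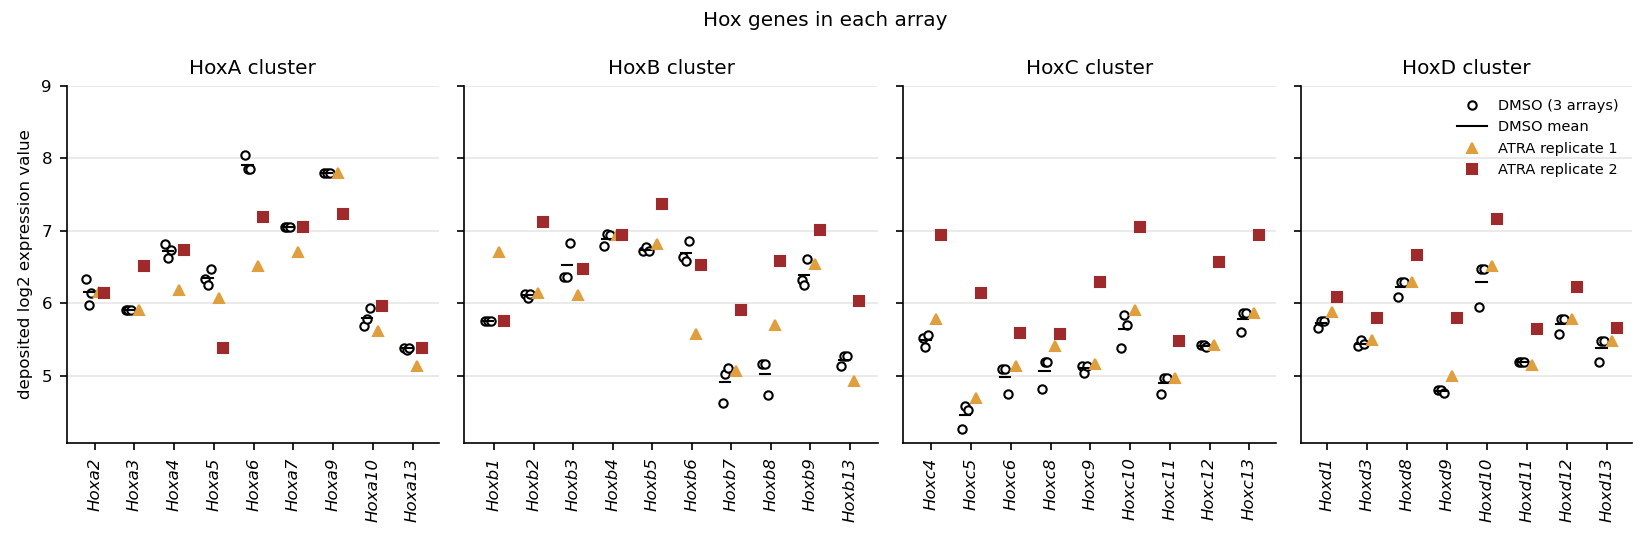
Deposited log2 expression value (vertical axis) of the 36 Hox genes in each of the 5 arrays, ordered by paralog group within each cluster. Circles are the 3 DMSO arrays with a bar at their mean, triangles ATRA replicate 1 and squares ATRA replicate 2. In HoxC and HoxD every gene is highest in ATRA replicate 2, while in HoxA this holds for 2 of 9 genes.

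In the HoxA cluster, 8 of 9 differences lay below 0, with a median of -0.17, and for Hoxa2 and Hoxa10 the difference was within 0.01 of 0. Hoxa6 (feature 17466838), a paralog group 6 gene of the cluster's middle, was at 8.04, 7.85 and 7.85 in DMSO and at 6.52 and 7.19 in ATRA. Both ATRA arrays lay below all DMSO arrays, by more than the whole spread of the DMSO values. The difference was -1.06 (SE 0.24, limma adjusted p = 0.0441, 95% interval -1.70 to -0.42), a 2.09-fold decrease. Once the level trend was removed it was -0.38 and did not pass (adjusted p = 0.473). The ATRA arrays then lay on opposite sides of the DMSO mean, at -0.90 in replicate 1 and 0.15 in replicate 2. Leaving out any DMSO array also ended the call, at adjusted p from 0.146 to 0.160, while the difference stayed between -1.09 and -0.996. No gene of the 22180 passed without a DMSO array (limma, 5907 to 6065 at an unadjusted p under 0.05).

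Hoxa5, whose product is a factor of lung and skeletal development and restrains erythroid differentiation in blood, was at 6.33, 6.25 and 6.48 in DMSO and at 6.07 and 5.38 in ATRA. Its groups did not overlap either. It differed by -0.63 (SE 0.24, adjusted p = 0.133), and by -0.98 with the level trend removed (adjusted p = 0.114), and so was not called in either fit. Hoxa4 stood at 6.82, 6.62 and 6.73 in DMSO and at 6.18 and 6.73 in ATRA. ATRA replicate 1 alone was low there, and replicate 2 was inside the DMSO range (difference -0.27, adjusted p = 0.332, and -0.37 with the level trend removed).

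Hoxa9, Hoxa7 and Hoxa10, which are also known in blood, did not pass the threshold. Hoxa9, which drives stem cell expansion and is a leukemia oncogene, read 7.80 in all 3 DMSO arrays, 7.80 in ATRA replicate 1 and 7.24 in replicate 2. A value that repeats to the last digit in 4 arrays leaves 1 array to carry the difference of -0.28 (SE 0.20, adjusted p = 0.30). Its sign turned once the level trend was removed, to 0.57 (adjusted p = 0.0512), and after cyclic loess normalization, to 0.55 (adjusted p = 0.0557). Hoxa7 read 7.06 in all DMSO arrays and in ATRA replicate 2, and 6.71 in ATRA replicate 1 (difference -0.17, adjusted p = 0.371, and 0.04 with the level trend removed). Hoxa10, a regulator of myeloid progenitors and of the uterus, was at 5.68, 5.79 and 5.93 in DMSO and at 5.62 and 5.96 in ATRA, on either side of the DMSO range. The interval of its difference, -0.45 to 0.43 (-0.44 with the level trend removed), does not exclude a change of either sign.

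The other HoxA genes were Hoxa2, Hoxa3 and Hoxa13. Hoxa2, which patterns the hindbrain, spread from 5.98 to 6.33 in DMSO and was at 6.15 in both ATRA arrays. Hoxa3 read 5.90 in all DMSO arrays and in ATRA replicate 1, and 6.51 in replicate 2. Hoxa13, a limb and genital tract gene, read 5.39, 5.36 and 5.39 in DMSO and 5.13 and 5.39 in ATRA.

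In HoxB, 8 of 10 differences were above 0, with a median of 0.37, and none passed. Hoxb8 (feature 17255565), which holds myeloid progenitors in an undifferentiated state when overexpressed, was at 5.16, 5.16 and 4.73 in DMSO and at 5.71 and 6.58 in ATRA. Both ATRA values were above all DMSO values. The difference of 1.13 (SE 0.32, adjusted p = 0.0733, 95% interval 0.27 to 1.99) was the highest of the 36 genes and missed the threshold. With the level trend removed it was 0.65 (adjusted p = 0.157). At a threshold of 0.1, Hoxb8 counted as higher and Hoxa6 as lower, among 13.9% of all genes higher and 21.1% lower.

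Hoxb4 is known for expanding HSCs. It was at 6.78, 6.95 and 6.94 in DMSO and at 6.94 in both ATRA arrays, so the ATRA values repeat a DMSO value. The difference was 0.05 (SE 0.12, adjusted p = 0.760), with an interval from -0.27 to 0.36, and 0.19 with the level trend removed. Hoxb5, a marker of long-term HSCs in mouse marrow, was at 6.72, 6.78 and 6.72 in DMSO and at 6.81 and 7.37 in ATRA. ATRA replicate 1 was barely above the DMSO range and replicate 2 clearly above it (difference 0.35, adjusted p = 0.237, and 0.47 with the trend removed). A second Hoxb5 feature gave a difference of 0.36.

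Hoxb2 and Hoxb7 were also high mainly in ATRA replicate 2. Hoxb2, which acts in the hindbrain, read 6.13, 6.07 and 6.13 in DMSO and 6.14 and 7.12 in ATRA (difference 0.53, adjusted p = 0.248, and 0.26 with the trend removed). Hoxb7 read 4.62, 5.02 and 5.11 in DMSO and 5.07 and 5.90 in ATRA (0.57, adjusted p = 0.233, which shrank to 0.07). Hoxb1, the group 1 gene with a well studied retinoic acid response element in the embryo, did the reverse. It read 5.75 in all 3 DMSO arrays and in ATRA replicate 2, and 6.70 in ATRA replicate 1 (0.47, SE 0.31, adjusted p = 0.268), a difference of 0.08 with the trend removed.

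Hoxb3 and Hoxb6 were the HoxB genes with differences below 0. Hoxb6, a gene of the middle of the cluster that is expressed in progenitors, was at 6.64, 6.59 and 6.86 in DMSO and at 5.57 and 6.53 in ATRA. Both ATRA values were below the DMSO values, replicate 2 by a small margin (difference -0.65, SE 0.32, adjusted p = 0.197). Removing the level trend, Hoxb6 differed by -0.86 (adjusted p = 0.0987). Hoxb3 read 6.37, 6.37 and 6.83 in DMSO and 6.11 and 6.47 in ATRA, which overlap (-0.23, adjusted p = 0.420, and -0.45 with the trend removed). Of the remaining HoxB genes, Hoxb9 ranged from 6.25 to 6.61 in DMSO and was at 6.55 and 7.01 in ATRA, and Hoxb13 ranged from 5.13 to 5.27 in DMSO and was at 4.93 and 6.02 in ATRA.

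All 9 HoxC differences were above 0, with a median of 0.63 and no call. HoxC genes act mainly in the trunk, limbs, skin and nervous system. Hoxc4, which is also expressed in lymphoid cells, was at 5.52, 5.40 and 5.56 in DMSO and at 5.78 and 6.95 in ATRA. ATRA replicate 2 was far above the other 4 arrays (difference 0.87, SE 0.37, adjusted p = 0.158, and 0.45 with the level trend removed). Hoxc8, a trunk gene, read 4.81, 5.19 and 5.19 in DMSO and 5.41 and 5.57 in ATRA. Here the ATRA arrays lay close together above the DMSO values (0.43, SE 0.18, adjusted p = 0.147). The Hoxc8 difference was -0.06 (adjusted p = 0.825) with that trend removed. The other 7 HoxC genes differed by 0.33 for Hoxc11 to 0.96 for Hoxc5.

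All 8 HoxD differences were above 0 too, in a narrower range around a median of 0.26. HoxD genes are best known for building limbs and digits. Hoxd9 read 4.80, 4.80 and 4.76 in DMSO and 4.99 and 5.79 in ATRA, with no overlap (difference 0.61, SE 0.27, adjusted p = 0.161, and 0.11 with the level trend removed). Hoxd1, the group 1 gene of the cluster, which acts in sensory neurons, read 5.66, 5.75 and 5.75 in DMSO and 5.87 and 6.09 in ATRA. Its groups did not overlap either (0.26, SE 0.13, adjusted p = 0.198), and the difference was -0.16 with the level trend removed. The other 6 HoxD genes differed by 0.19 for Hoxd13 to 0.55 for Hoxd10. Hoxd10, with 5.94, 6.47 and 6.47 in DMSO and 6.52 and 7.17 in ATRA, was the third HoxD gene without overlap.

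**Figure D2:**
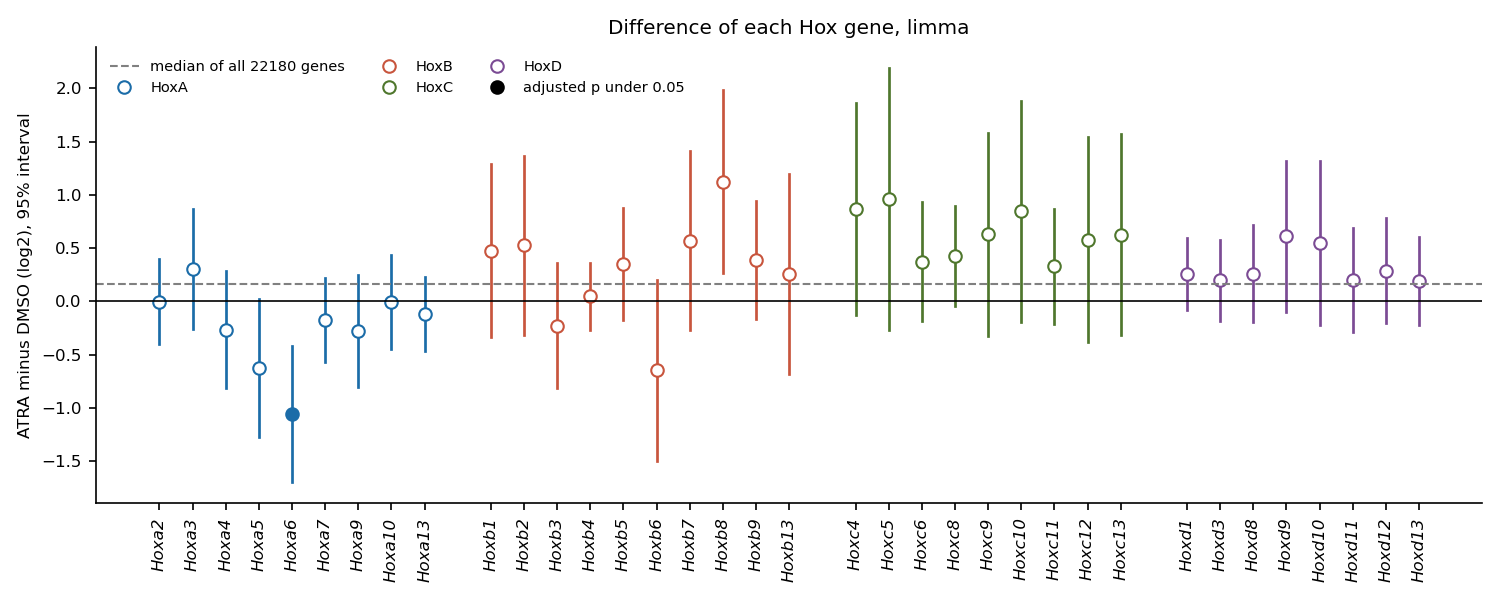
Difference between ATRA and DMSO (vertical axis, log2) of each Hox gene with its 95% interval from limma, by cluster. The filled point is Hoxa6, the gene with an adjusted p under 0.05, and the dashed line is the median of all 22180 genes at 0.16. The intervals of Hoxa6 and Hoxb8 leave out 0 and the others include it.

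Promoter sequence was looked up in a RefSeq table (mouse build GRCm38.p6) of 300-base windows, from 250 bases before to 50 after each gene's start, which held 22 windows of 20 members. The 250 bases before the start are shown for the gene that fell, Hoxa6, for Hoxb8, which had the highest difference, and for Hoxb4, a gene of blood stem cells whose ATRA values repeat a DMSO value. Capitals mark AGGTCA, a hexamer that retinoic acid receptors bind, as well as the TATA box letters TATAAA, the CCAAT box and the GC box letters GGGCGG, on either strand.
Hoxa6 (chr6:52208673-52208922, minus strand): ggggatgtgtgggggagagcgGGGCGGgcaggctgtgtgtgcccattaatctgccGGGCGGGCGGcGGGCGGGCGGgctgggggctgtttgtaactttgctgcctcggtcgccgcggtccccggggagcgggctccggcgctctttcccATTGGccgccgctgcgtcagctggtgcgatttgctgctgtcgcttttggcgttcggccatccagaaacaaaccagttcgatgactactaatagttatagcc
Hoxb8 (chr11:96281655-96281904, plus strand): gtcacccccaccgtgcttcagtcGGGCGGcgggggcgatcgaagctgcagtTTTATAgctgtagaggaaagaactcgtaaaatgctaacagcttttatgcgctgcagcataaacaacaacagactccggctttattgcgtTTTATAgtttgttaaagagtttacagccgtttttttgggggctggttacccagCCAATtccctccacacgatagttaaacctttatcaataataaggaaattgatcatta
Hoxb4 (chr11:96318017-96318266, plus strand): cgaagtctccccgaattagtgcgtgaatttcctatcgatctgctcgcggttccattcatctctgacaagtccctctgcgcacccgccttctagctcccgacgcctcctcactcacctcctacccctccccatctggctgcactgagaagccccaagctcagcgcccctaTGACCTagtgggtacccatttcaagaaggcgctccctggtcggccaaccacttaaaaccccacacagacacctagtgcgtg
Hoxa6 held 5 copies of GGGCGG, some of them overlapping, and 1 CCAAT on the opposite strand. Hoxb8 held 2 copies of TATAAA on the opposite strand, and Hoxb4 held 1 AGGTCA, also on the opposite strand. AGGTCA was present in 6 of the 22 Hox windows (Hoxa5, Hoxb4, Hoxc4, Hoxd3, Hoxd8 and Hoxd10), beside 16.3% of all windows in the table. Counting its variants too (the hexamer AGTTCA, the hexamer GGGTCA and the hexamer GGTTCA), it was 9 of 22, beside 43.7% of all windows. None of the 22 held a pair of these hexamers in the same direction at a spacing of 1, 2 or 5 bases, and in all windows such pairs were found in 0.222%, 0.268% and 0.0974%. CCAAT was present in 14 of 22 windows (37.4% of all), GGGCGG in 10 (35.7%) and TATAAA in 3 (13.6%). A match describes these letters and is not a binding site, and windows of the other 16 members were not used here.

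The clusters differed in direction as deposited, and how far depended on the scaling. Medians were -0.17 for HoxA, 0.37 for HoxB, 0.63 for HoxC and 0.26 for HoxD, and 26 of 36 differences were above 0, beside 57.7% of all genes. With each array centred on its median, the medians were -0.44, 0.10, 0.36 and -0.01. With the level trend removed they were -0.37, 0.13, 0.15 and -0.15, and 17 of 36 differences were above 0. HoxA thus kept a median below 0 and HoxB and HoxC a median above 0 under these scalings. The same held after quantile normalization and cyclic loess, and HoxD turned below 0 under all 4. The ATRA arrays did not share this direction for HoxB and HoxC. With the level trend removed, HoxB was at -0.01 in replicate 1 and 0.24 in replicate 2, and HoxC at -0.14 and 0.525. HoxA was at -0.44 and -0.17, and HoxD at -0.15 in both. Whether the clusters differ was not tested.

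**Figure D3:**
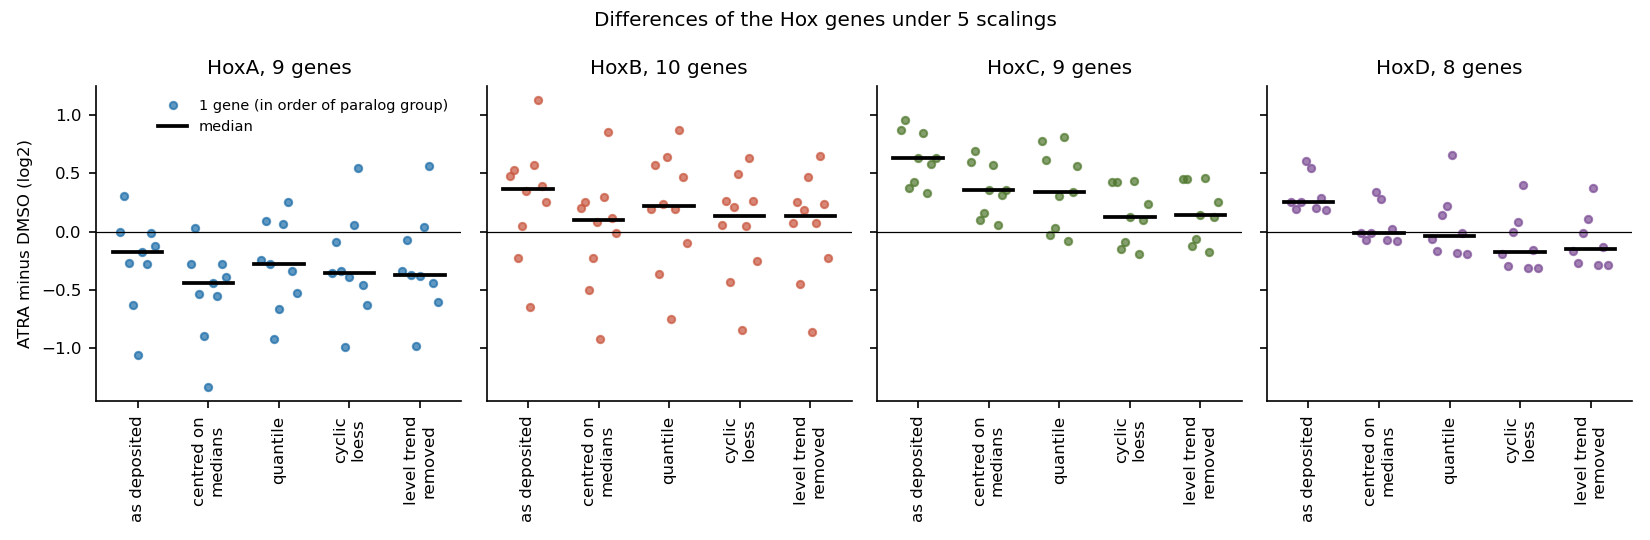
Difference between ATRA and DMSO (vertical axis, log2) of the Hox genes of each cluster under 5 scalings of the deposited values. Each point is 1 gene and the black bar is the cluster's median, which for HoxD moves from 0.26 as deposited to -0.15 with the level trend removed.

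Along the clusters the medians differed little by paralog group as deposited. Median differences were 0.26 for the 7 genes of groups 1 to 3, 0.30 for the 14 genes of groups 4 to 8 and 0.33 for the 15 genes of groups 9 to 13. With the level trend removed they were -0.16, 0.01 and 0.11, and after quantile normalization -0.06, 0.10 and 0.22. The low-numbered genes that respond first in the embryo had the lowest median under these scalings, and also after centring and cyclic loess. Whether the groups differ was not tested. Within paralog groups, whose members arose from 1 ancestral gene and have similar homeodomains, the HoxA member had the lowest difference in 8 of the 9 groups that hold it. In group 6, Hoxa6 was at -1.06, Hoxb6 at -0.65 and Hoxc6 at 0.37. Group 5 ran from -0.63 for Hoxa5 to 0.35 for Hoxb5 and 0.96 for Hoxc5, and group 3, with Hoxb3 lowest, was the exception. The count was 8 after centring, 6 after quantile normalization, 5 after cyclic loess and 6 with the level trend removed, and no test was made of it.

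In 12 of the 36 Hox genes both ATRA arrays were above the 3 DMSO arrays, 33.3%, beside 33.0% of all genes. They lay below in 3, Hoxa5, Hoxa6 and Hoxb6, or 8.33%, beside 29.2% of all genes. The share above was near the background and the share below was under it. That background is not matched for level, since the highest DMSO mean of a Hox gene was 7.91. All genes averaging 8 to 9 in DMSO had a median difference of -1.33, and those from 9 to 10 had -1.94. By cluster, none of the HoxA genes lay above, and 3 HoxB, 6 HoxC and 3 HoxD genes did.

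ATRA replicate 2 carried most of the values above DMSO. It exceeded ATRA replicate 1 in 31 of 36 genes and was the highest of the 5 arrays in 25 (69.4%, beside 42.6% of all genes). The median difference from the DMSO mean was 0.06 in replicate 1 and 0.51 in replicate 2, with 0.04 and 0.14 over all genes. For HoxC it was 0.15 in replicate 1 and 1.17 in replicate 2, for HoxB 0.06 and 0.62, and for HoxD 0.08 and 0.45. HoxA was at -0.25 in replicate 1 and 0.00 in replicate 2. In 30 of 36 genes the gap between the ATRA arrays was larger than the difference between the groups, a larger share than the 49.0% of all genes.

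The gap exceeded 1 in 7 members, beside 22.6% of all genes, and this class was chosen after values were seen. Besides Hoxc4 these were Hoxc5 (4.69 in ATRA replicate 1 and 6.14 in replicate 2), Hoxc9 (5.16 and 6.29), Hoxc10 (5.91 and 7.06), Hoxc12 (5.42 and 6.57), Hoxc13 (5.86 and 6.94) and Hoxb13 (4.93 and 6.02). In each of them replicate 2 was the higher array, and replicate 1 was within 0.30 of the DMSO mean. Without ATRA replicate 1, when replicate 2 is taken to vary as the DMSO arrays do, 17 Hox genes were called higher and 3 lower, beside 33.5% and 30.6% of all genes. Without ATRA replicate 2 under the same assumption, Hoxb1 and Hoxd9 were called higher and Hoxa4, Hoxa6, Hoxa7, Hoxa13 and Hoxb6 lower, beside 13.3% and 21.3% of all genes. Hoxa6 was called lower in both of these fits, at -0.72 (adjusted p = 0.0215) and -1.40 (adjusted p = 0.0143).

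The level at which a gene was read in DMSO moved with its difference, in Hox genes as in the other genes. All 9 HoxC genes and 6 of 8 HoxD genes had DMSO means under the median of all values, 6.03, while 6 of 9 HoxA and 6 of 10 HoxB genes were above it. The 17 Hox genes averaging 5 to 6 in DMSO had a median difference of 0.30, beside 0.45 for all 5362 genes of that range. The 11 Hox genes from 6 to 7 had a median of 0.05 (all genes 0.14), the 5 from 4 to 5 had 0.57 (all genes 0.56), and the 3 from 7 to 8, Hoxa6, Hoxa7 and Hoxa9, had -0.28 (all genes -0.64). The Hox medians, each over few genes, were thus close to those of all genes at the same level or nearer 0. With the trend removed, the median over Hox genes was -0.04, and -0.04 over all genes. The ATRA arrays went opposite ways there, with a Hox median of -0.16 in replicate 1 (all genes -0.07) and 0.10 in replicate 2 (all genes -0.08).

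**Figure D4:**
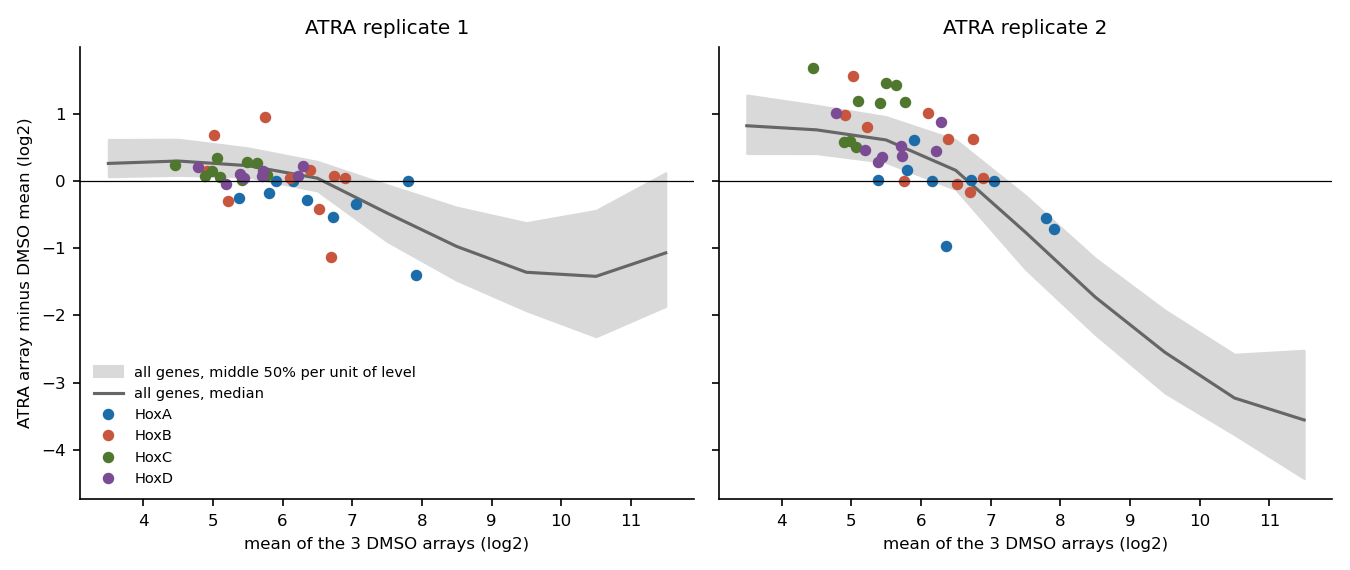
Each ATRA array minus the DMSO mean (vertical axis, log2) against the DMSO mean (horizontal axis, log2), for ATRA replicate 1 and replicate 2. The line is the median and the band the middle 50% of all genes per unit of level, and points are Hox genes coloured by cluster. In replicate 2 all HoxC and HoxD points lie above 0, and the lowest point is Hoxa5.

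Many Hox values repeat. The 3 DMSO arrays gave the same value to the last deposited digit for Hoxa3, Hoxa7, Hoxa9, Hoxb1 and Hoxd11, 13.9% of the members, beside 6.47% of all genes. A value occurred more than once among the 5 arrays for 27 members (75%, beside 47.8%), including all 8 HoxD genes. ATRA replicate 1 repeated a DMSO value in 10 members and ATRA replicate 2 in 6. The source of the repeats was not tested.

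Hox cofactors of the TALE homeodomain class moved in both directions. Of 8 measured out of 9, 1 rose, 1 fell and 6 did not pass, with a median of -0.03, where 6.48% of all genes rose and 15.5% fell. Pknox1, also called Prep1, which binds DNA with PBX, averaged 7.01 in DMSO and was at 5.45 and 5.60 in ATRA (difference -1.48, SE 0.13, adjusted p = 0.0077). That call held with the level trend removed, at -1.71 (adjusted p = 0.0090). Its relative Pknox2 rose by 0.79 (adjusted p = 0.0493), a call lost with the trend removed (0.41, adjusted p = 0.271). Meis1, the partner of Hoxa9 in stem cells and leukemia, was at 10.52, 10.52 and 10.70 in DMSO, at 9.64 in ATRA replicate 1 and at 6.36 in replicate 2. Both ATRA values were below DMSO, but they differed so much that the difference of -2.58 (SE 1.003, adjusted p = 0.131) did not pass. Pbx2 differed by -0.28 (adjusted p = 0.272).

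Of 14 measured activators of Hox genes, 5 fell (35.7%, beside 15.5% of all genes), none rose and 9 did not pass, with a median of -1.85. These genes were bright, with a median DMSO mean of 8.47. All genes averaging 8 to 9 in DMSO had a median difference of -1.33, and those from 9 to 10 had -1.94. All 5 that fell belong to MLL-type methyltransferase complexes, which keep Hox chromatin active, a class the list was built around. The 4 with the smallest p were Kmt2b (-1.90, adjusted p = 0.0074), Men1, which encodes menin (-2.71, adjusted p = 0.0104), Ash2l (-2.35, adjusted p = 0.0182) and Rbbp5 (-1.81, adjusted p = 0.0242). Kmt2a, which encodes MLL itself, averaged 9.45 in DMSO and was at 8.08 and 6.44 in ATRA (-2.18, adjusted p = 0.0471). Ash2l alone kept its call with the trend removed (-1.11, adjusted p = 0.0133), 1 of 14 where 1567 of all 22180 genes were lower. Other genes of the MLL complexes did not pass: Psip1 (-1.90, adjusted p = 0.189), Wdr5 (-0.71, adjusted p = 0.226) and Dpy30. Dpy30 went the other way, by 0.53 (adjusted p = 0.428). Of the Cdx genes, which switch on Hox genes in the embryo, none passed.

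Genes reported as targets of HOXA9 and MEIS1 fell in 7 of 14 cases, beside 15.5% of all genes, none rose and 7 did not pass (median -0.82). Their median DMSO mean was 8.08, and all genes averaging 8 to 9 in DMSO had a median difference of -1.33 (7 to 8, -0.64). Erg, a transcription factor of HSCs, averaged 9.0 in DMSO and was at 6.28 and 6.07 in ATRA (-2.83, adjusted p = 0.0068). Sox4 differed by -1.86 (adjusted p = 0.0113), the survival gene Bcl2 by -2.01 (adjusted p = 0.0210) and Myb, a progenitor transcription factor, by -3.51 (adjusted p = 0.0323). After removal of the level trend 4 stayed lower, Erg, Myb, Flt3 and Cdk6, where 1567 of all 22180 genes were lower. These genes have many regulators besides Hox proteins. Without any DMSO array, none of these calls among cofactors, activators and targets held, as for all genes. Without ATRA replicate 1, or without replicate 2, the numbers lower became 2 and 3 for cofactors, 9 and 7 for activators and 8 and 5 for targets, beside 30.6% and 21.3% of all genes. Those higher became 1 and 0, 1 and 2, and 2 and 3, beside 33.5% and 13.3% of all genes.

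The clusters also hold microRNA genes, and 4 of 6 had a feature of their own. Mature sequences from RefSeq (GRCm38.p6) are shown with the seed, bases 2 to 8, in capitals, since the members of a family share it.
miR-10b-5p: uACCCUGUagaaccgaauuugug
miR-10a-5p: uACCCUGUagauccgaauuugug
miR-196a-5p: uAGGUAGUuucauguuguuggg
miR-196b-5p: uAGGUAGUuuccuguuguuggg
The miR-10 pair, encoded beside group 4 genes, shares the seed ACCCUGU, and the miR-196 family, encoded beside group 9 genes, shares AGGUAGU and is known to repress Hoxb8 messenger RNA. Features of these genes may read the hairpin or its precursor, and mature microRNA was not measured. Mir196a-2, in HoxC, was at 3.62, 4.32 and 4.58 in DMSO, at 4.87 in ATRA replicate 1 and at 9.42 in replicate 2. The difference of 2.97 (SE 1.42, adjusted p = 0.187) came mostly from replicate 2, though replicate 1 was above the DMSO values too. Mir196a-1, in HoxB, was at 4.83, 5.17 and 5.17 in DMSO and at 5.24 and 5.77 in ATRA (0.44, adjusted p = 0.206). Mir10b (0.99, adjusted p = 0.358) and Mir615 (0.64, adjusted p = 0.214) did not pass either, and Mir10a and Mir196b are not analysed here.

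Of 14 long noncoding and antisense genes of the clusters, 3 were measured on features of their own and none passed. Hotair, transcribed within HoxC, differed by 0.47 (adjusted p = 0.128), Hoxaas3 by 0.15 (adjusted p = 0.389) and Hoxd3os1 by 0.71 (adjusted p = 0.269). Strand handling is a property of the array's probes, so a sense and an antisense transcript are told apart only as far as these are specific. The ParaHox genes, relatives of the Hox genes outside the clusters, had 6 of 6 measured and none past the threshold, with a median of 0.40. Their smallest p were those of Cdx2 (0.36, adjusted p = 0.0944), Pdx1 (0.44, adjusted p = 0.115), Cdx1 (0.30, adjusted p = 0.218) and Cdx4 (0.46, adjusted p = 0.236).

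Genes flanking the clusters included larger differences than those of the Hox genes. They were also brighter, with a median DMSO mean of 7.74, beside 5.74 for the Hox genes. All genes averaging 8 to 9 in DMSO had a median difference of -1.33, and those from 10 to 11 had -2.35. Of 16 measured flanking genes, 3 fell, none rose and 13 did not pass, with a median of -0.52. The share that fell, 18.8%, was near the 15.5% of all genes. Hibadh, a valine breakdown enzyme near HoxA, averaged 8.78 in DMSO and was at 6.51 and 4.94 in ATRA (-3.05, adjusted p = 0.0222). Skap2, an adaptor of integrin signalling at the other end of HoxA, differed by -2.59 (adjusted p = 0.0354), and Cbx5, the heterochromatin protein HP1 alpha near HoxC, by -2.75 (adjusted p = 0.0423). Hnrnpa3, near HoxD, differed by -1.92 (adjusted p = 0.0721). The 3 calls held with the level trend removed, where 1567 of all 22180 genes were lower. They did not hold without any 1 DMSO array, and without ATRA replicate 1 or 2 there were 8 and 8 lower (30.6% and 21.3% of all genes) and 3 and 2 higher (33.5% and 13.3%).

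Markers of other marrow cells are given beside these values, and their part in the Hox results was not tested. Each list holds few genes, and among all genes 6.48% rose and 15.5% fell. Of 8 granulocyte and monocyte markers, 1 rose (S100a9, 0.81, adjusted p = 0.0259), and their mean level was 5.81 to 6.19 in DMSO, 6.45 in ATRA replicate 1 and 6.07 in replicate 2. Of 5 T cell markers, 1 rose (Cd3g, 0.57, adjusted p = 0.0462), with a mean level of 5.33 to 5.44 in DMSO and 5.63 and 6.33 in ATRA. Stroma and endothelium had 1 of 5 higher (Cdh5), at 6.69 to 6.83 in DMSO and 7.05 and 7.26 in ATRA. Megakaryocyte markers had 1 of 4 lower (Itga2b), at 8.48 to 8.70 in DMSO and 7.99 and 7.86 in ATRA. The others differed by -0.36 (Vwf) and -0.17 (Pf4), and Gp9 read 7.93 in all 5 arrays. With the level trend removed, Pf4 was at 1.44 (adjusted p = 0.0544), Gp9 at 1.02 (adjusted p = 0.0531) and Vwf at -0.10. B cell markers (4 measured, 5.60 to 5.68 in DMSO, 5.74 and 6.29 in ATRA) and erythroid markers (3 measured, 6.48 to 6.95 in DMSO, 5.92 and 6.68 in ATRA) had no member past the threshold. Once the level trend was removed, the calls of S100a9 (0.43, adjusted p = 0.196), Cd3g (0.07, adjusted p = 0.758) and Itga2b (-0.76, adjusted p = 0.248) were lost. Cdh5 kept its call (0.69, adjusted p = 0.0434). Pecam1, of the same list and at -0.32 as deposited, was then called higher too (0.97, adjusted p = 0.0238). In that fit 753 of all 22180 genes were higher. On log2 array values no marker can be called absent.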

How the data were processed

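Expression of 22180 genes was measured in 5 arrays, 3 DMSO and 2 ATRA, grouped by their titles. The authors deposited log2 expression values for 41345 features. Per the submitters' processing notes, RMA, oligo 1.36.1 and limma 3.28.20 were used, with roles and array build not given in the sources used here. RMA shrinks differences of dim features. Values were used as deposited, without a filter. Features were named through the platform's gene table (25335 listed, 23521 with 1 gene).

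The groups were compared with limma 3.58.1 (R 4.3.3, lmFit and eBayes, two-sided, 3 residual and 1.52 prior degrees of freedom), which was tested on simulated data. The simulated arrays all had the spread of the DMSO arrays and no level trend. They therefore do not show how limma does with ATRA arrays as unlike as these. An exact permutation test of 3 against 2 arrays cannot give a p below 0.1. Alternatives left out each array, added a replicate block, left out dim genes, and changed scaling, variance model, feature rule and threshold. The level trend is a lowess curve of each array's difference from the mean of all 5 arrays, on that mean.

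Members and lists (cofactors, activators, HOXA9 and MEIS1 targets, microRNAs, noncoding, flanking and ParaHox genes, cell markers) were chosen with earlier results of these data known. Genes named with values are members past the threshold, the 2 smallest p per cluster, 10 members studied in blood stem cells, members best known as retinoic acid targets in the embryo (such as Hoxb1, Hoxa4 and Hoxb4), up to 4 genes per list by p, and Meis1. Some items of this rule are not reported here. Others were chosen after their values were seen.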

Additional observations from a re-analysis of the deposited data

How the results depend on the processing

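The number of arrays and the gap between the ATRA arrays limit what could be seen. The Hox median of 0.30 ranged from 0.06 without ATRA replicate 2 to 0.51 without ATRA replicate 1, was 0.30 with a replicate block, and was 0.025 after centring, -0.046 after cyclic loess and -0.037 with the level trend removed. Leaving out 1 array gave 0 to 17 Hox genes higher and 0 to 5 lower, and 0 to 7424 higher and 0 to 6783 lower among all genes. The counts of 0 came without a DMSO array (limma, 1 or 2 Hox genes and 5907 to 6065 of all genes at an unadjusted p under 0.05), and the highest lower count of Hox genes came without ATRA replicate 2. With the replicate number as a block, 0 Hox genes and 0 of all genes passed (1 and 5412 at an unadjusted p under 0.05). Deviations of same-numbered arrays correlated at r = 0.134 and 0.098, which does not show that the numbers pair the samples. Hox genes lower were 0 after quantile normalization (2 at an unadjusted p under 0.05) and 0 with the level trend removed (6). Cyclic loess gave 1 lower, Hoxa13 in place of Hoxa6 and named after its value was seen (-0.63, adjusted p = 0.0484). At a threshold of 0.1 there was 1 higher. Higher and lower counts over all genes were 439 and 1743 after quantile normalization, 771 and 1504 after cyclic loess, 560 and 4542 after centring, 753 and 1567 with the level trend removed, 942 and 3726 with dim genes left out, and 3083 and 4672 at a threshold of 0.1.

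Of all 36 Hox genes, 18 changed sign in at least 1 setting, 13 of them with the level trend removed. Among the 18 genes that the naming rule gives with a test, 7 did, none of them past the threshold in it. Hoxa10 went from -0.0080 to 0.056 in the replicate block and ran from -0.18 to 0.16 over the left-out arrays. Hoxa4 ran from -0.54 to 0.010 over them and Hoxb4 from -0.0067 to 0.076, with -0.22 after centring. Hoxa7 was 0.062 after quantile normalization, 0.060 after cyclic loess and 0.039 with the level trend removed, and Hoxa9 was 0.26, 0.55 and 0.57. Hoxc8 was -0.088 after cyclic loess and -0.063 with the level trend removed. Hoxd1 was -0.060 after quantile normalization, -0.19 after cyclic loess, -0.012 after centring and -0.16 with the level trend removed. The causes were not tested.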

Other observations

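Features that name a Hox gene together with another gene were kept out of the comparison, and none passed in limma over all features. The feature of Hoxa3 and 5730446D14Rik differed by 0.58 (adjusted p = 0.0751) and that of Hoxb3 and Hoxb2 by 0.52 (adjusted p = 0.228). For Hoxd4, a gene known as a direct retinoic acid target, the feature shared with Hoxd3 differed by 0.42 (adjusted p = 0.282). A feature shared by Hoxa11 and its antisense gene Hoxa11os differed by 0.75 (adjusted p = 0.0756) and another by 0.14. Those of Mira with Hoxa7 and of Mir10a with Hoxb4 had differences of -0.74 (adjusted p = 0.264) and -0.28 (adjusted p = 0.808). None of them can be assigned to a single gene.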
